A study of Rattus norvegicus with 16 samples.

Results

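The cells of intervertebral discs (IVD) that had not been punctured were compared between 2 time points after surgery in the same study. Members were the cells that the authors placed in their disc cell class in the 8 libraries of uninjured discs (CON). They numbered 60001 of the 69624 cells of these libraries and of the 149272 cells of the whole series, 37344 at 2 weeks (CON 1 to 4) and 22657 at 8 weeks (CON 5 to 8). A level was the mean over the IVD cells of a library in CPM, a count scaled to the total of its cell, and tests ran over libraries, 1 a rat. Values covered 13855 genes listed at both times, of which 11224 with a mean of at least 1 CPM were tested.

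All rats were male Sprague-Dawley, 8 weeks old at surgery, and each had 2 lumbar discs stabbed with a needle (lumbar disc puncture, LDP). The uninjured discs were the next 2 above, left intact in the operated animal, so no group came from an unoperated rat. The 2 discs of a side were pooled, digested with pronase and collagenase, and made into 1 library of 10x Genomics 3′ single-cell RNA. Rats 1 to 4 were taken at 2 weeks and rats 5 to 8 at 8 weeks. The later group was thus also 6 weeks older, and time after surgery, age and any difference in handling between the groups cannot be told apart.

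IVD cells made up 70.3 to 96.7% of the cells of a CON library, 87.5 ± 3.63% at 2 weeks and 85.5 ± 12.3% at 8 weeks (SD, n = 4; exact two-sided permutation test, p = 0.8). The class held 3398 to 12283 cells a library at 2 weeks and 4540 to 6593 at 8 weeks, with 26575433 to 74593215 UMIs (counted molecules) in all. The median was 4226 to 7640 UMIs per cell at 2 weeks and 5162 to 7667 at 8 weeks (exact permutation test, p = 0.343), so depth overlapped. Its markers were present: Acan had a UMI in 90.8 to 96.1% of the cells at 2 weeks and 90.6 to 94.4% at 8 weeks, and Col2a1 in 88.0 to 98.6% and 64.2 to 77.8%. With each cell thinned to 1000 UMIs, the share for Acan was 79.6 to 85.8% in the IVD class and 9.57 to 24.3% in myeloid cells at 2 weeks, and 65.4 to 76.2% and 1.42 to 7.25% at 8 weeks. For Col2a1 these shares were 55.5 to 90.0% and 10.9 to 55.0% at 2 weeks, and 31.1 to 46.9% and 1.81 to 9.18% at 8 weeks. The authors drew the classes in each group apart, and at 8 weeks CON had no endothelial class. One library stood apart in makeup: in a K-means clustering of all these cells together, a cluster with endothelial and mural genes took 11.5% of the IVD cells of CON 3 and 0.674 to 1.57% of the other 7. The most that any pair of libraries shared was 51 cell barcodes by number (0.433% of the smaller library) and 0.538% by share (44 barcodes in another pair). Since the labels do not describe the rats further, p-values measure the spread between single rats of one strain and sex.

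The disc has a gel-like centre, the nucleus pulposus, and a layered ring, the annulus fibrosus. Nucleus and inner annulus cells lay down collagen II and the large proteoglycan aggrecan, which hold water, while the outer annulus is built of collagen I fibres like a ligament. In growing animals these cells make matrix at a high rate, and the rate drops as the skeleton matures. Collagen chains are modified, folded and cross-linked by a set of dedicated enzymes before and after secretion.

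At 8 weeks, 25 of 32 tested genes of fibre collagens and their processing, 15 of 22 tendon and ligament genes and both IGF ligands, Igf1 and Igf2, were lower in IVD cells, while Mgp, 20 of 74 ribosomal protein genes and 27 of 89 oxidative phosphorylation genes were higher. In limma with Benjamini-Hochberg adjustment, 823 genes were higher at 8 weeks at an adjusted p under 0.05, 7.33% of the genes tested, and 1296 were lower, 11.5%. The median log2 change over all genes was −0.02. In 2706 genes (24.1%) the 4 libraries of one time did not overlap with the 4 of the other, and 1922 of these were called. Fitted over all 16 libraries with the rat as a replicate block, the same contrast called 424 higher and 536 lower genes. This fit takes the spread of the LDP libraries into its error too. Its log2 changes in CON equal those of the main fit by design, so only errors and p-values can differ. Of the called genes described here, 20 did not pass in that fit, with adjusted p from 0.079 (Postn) to 0.437 (Pkm). The others were Col6a1, Vcan, Has1, Has2, Lum, Fgfr3, Sox6, Ankh, Sfrp2, Adamts6, Hspa1a, Mt1, Mt2A, Bhlhe40, Cry1, Cry2, Nr1d2 and Pdia4. The shares of 7.33% and 11.5% are the background for each gene list below, as counted over the whole IVD class.

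**Figure D1:**
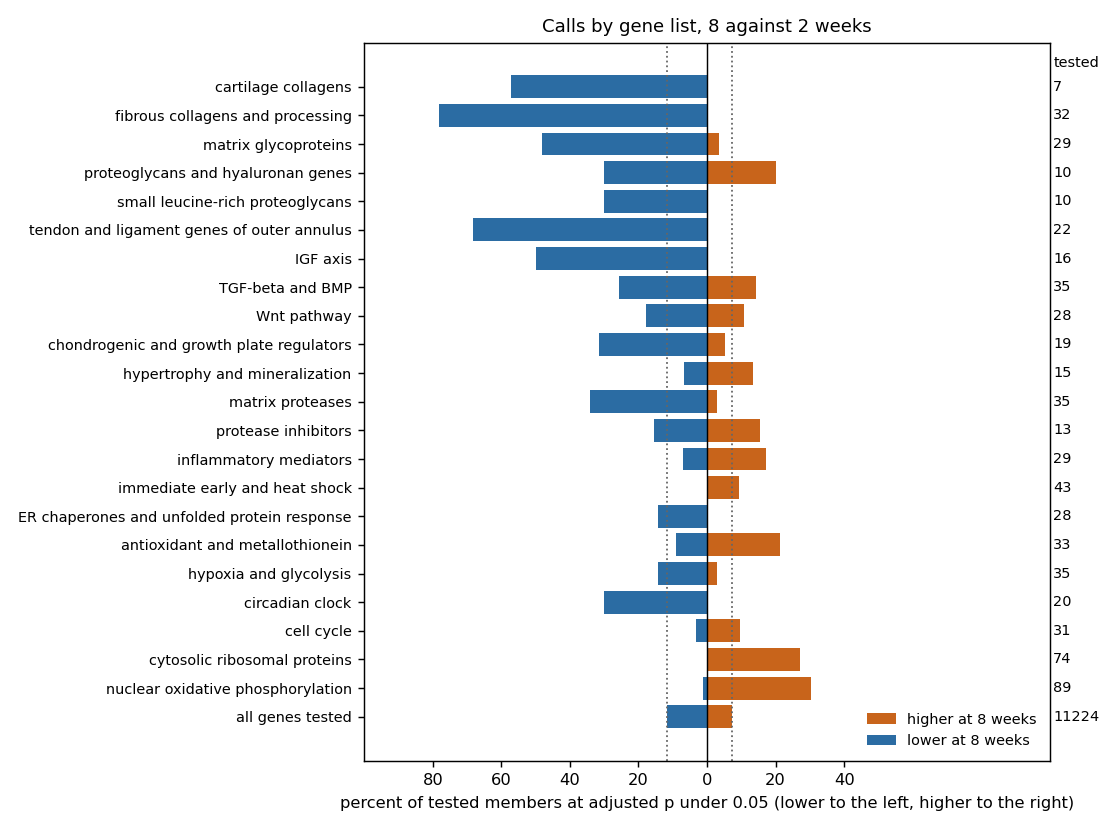
Share of the tested members of each gene list called higher (right) or lower (left) at 8 weeks, with the number tested at the right edge; dotted lines mark the shares over all genes, 7.33% and 11.5%. Of the lists drawn, bars of fibrous collagens, outer annulus genes and cartilage collagens reach farthest to the left (25 of 32, 15 of 22 and 4 of 7 lower), followed by the IGF axis (8 of 16) and matrix glycoproteins (14 of 29), and oxidative phosphorylation and ribosomal protein genes farthest to the right (27 of 89 and 20 of 74 higher).

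Fibre collagens and their processing enzymes were the list with the largest share of lower genes: 25 of 32 tested members fell and 0 rose, and all 32 had a negative log2 change (median −0.86). Col1a1, which encodes the main chain of collagen I, stood at 12155, 12017, 11734 and 6542 CPM in CON 1 to 4 and at 2698, 2948, 1511 and 1789 CPM in CON 5 to 8. Every library at 8 weeks lay under every library at 2 weeks, and CON 4 was the lowest of the early ones. The log2 change was −2.26 ± 0.26 (SE; adjusted p = 0.00115). Col3a1, the collagen III chain that forms thin fibres with collagen I, fell by 1.71 ± 0.23 on the log2 scale (adjusted p = 0.00181), from 1794 to 3583 CPM at 2 weeks to 627 to 1039 CPM at 8 weeks. Col5a1, whose product nucleates collagen I fibres, fell by 1.47 ± 0.20 (adjusted p = 0.00181). Col14a1, a collagen on the fibre surface, changed by −1.48 ± 0.26 (adjusted p = 0.00489). Col6a1 of the beaded filaments around cells changed by −0.82 ± 0.14 (adjusted p = 0.00436, and 0.222 in the fit over 16 libraries with the replicate block). The enzymes moved the same way. Loxl1, which cross-links elastin and collagen, read 11.6, 11.5, 10.3 and 11.4 CPM at 2 weeks and 4.73, 3.71, 4.49 and 4.26 CPM at 8 weeks (log2 −1.20 ± 0.11, adjusted p = 0.000868). Pcolce, an enhancer of the cleavage of procollagen, fell by 1.27 ± 0.20 (adjusted p = 0.00322).

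Cartilage collagens fell as well, in 4 of 7 tested members with 0 higher, and the median log2 change was −0.73. Col2a1, the main collagen of the nucleus and inner annulus, was at 14680, 4736, 13036 and 9255 CPM at 2 weeks and at 2962, 1580, 2086 and 2964 CPM at 8 weeks. CON 2 was the lowest early library and still stood above all late ones, and the log2 change was −2.04 ± 0.34 (adjusted p = 0.00393). Col11a1, the collagen XI chain inside collagen II fibres, read 2894, 1703, 2397 and 2173 CPM and then 1014, 913, 862 and 1128 CPM (log2 −1.21 ± 0.16, adjusted p = 0.00168). Its partner Col11a2 changed by −0.86 ± 0.17 (adjusted p = 0.00907), and Col9a2, a collagen IX chain on the fibre surface, by −0.71 ± 0.09 (adjusted p = 0.00162). The groups did not overlap in any of these 4 genes.

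**Figure D2:**
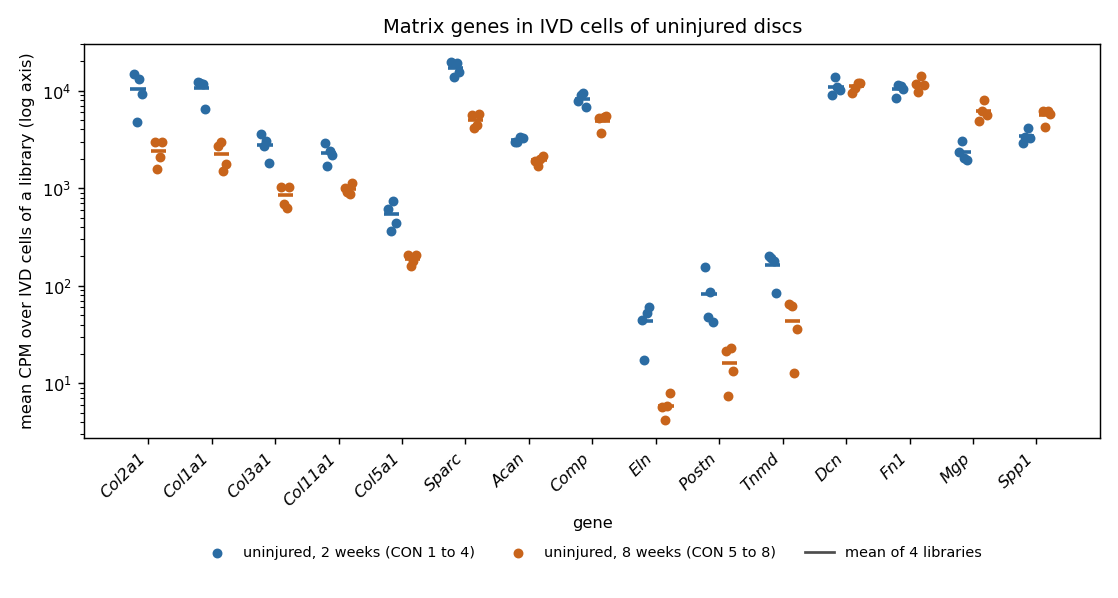
Mean CPM over the IVD cells of each uninjured library (log axis) for 15 matrix genes; points are libraries, 4 at 2 weeks (blue) and 4 at 8 weeks (orange), and bars their means. The 8-week points of Col1a1 (1511 to 2948) lie under all 2-week points (6542 to 12155), those of Mgp (4864 to 8007) lie above all 2-week points (1928 to 3063), and those of Dcn and Fn1 overlap.

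Among 29 tested matrix glycoproteins, 14 fell and 1 rose (median log2 −0.55). Sparc, a collagen-binding protein needed for fibre assembly, was among the most abundant transcripts at 19659, 13788, 19047 and 15350 CPM in CON 1 to 4 and at 5674, 4136, 4459 and 5797 CPM in CON 5 to 8. The gap between the lowest early and the highest late library was wider than the spread inside either group, and the log2 change was −1.76 ± 0.17 (adjusted p = 0.000868). Tnc, the tenascin C gene of stretched connective tissue, fell by 1.37 ± 0.16 (adjusted p = 0.00115), and Matn2, a matrilin that links matrix filaments, by 1.27 ± 0.16 (adjusted p = 0.00143). Comp, which bridges collagen fibres, fell less, by 0.75 ± 0.16 (adjusted p = 0.0128), from 6800 to 9341 CPM to 3673 to 5521 CPM. Cnmd, the chondromodulin gene whose product keeps vessels out of cartilage, read 171, 161, 201 and 366 CPM and then 63, 89.3, 120 and 116 CPM (log2 −1.16 ± 0.27, adjusted p = 0.0161). Cilp2, a cartilage intermediate layer protein, changed by −0.96 ± 0.15 (adjusted p = 0.00328).

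The member that rose was Mgp, matrix Gla protein, known as an inhibitor of calcification in cartilage and arteries. It read 2331, 3063, 2043 and 1928 CPM at 2 weeks and 4864, 6127, 8007 and 5645 CPM at 8 weeks, so every late library exceeded every early one. The log2 change was +1.40 ± 0.18 (adjusted p = 0.00168). Fn1, fibronectin, had 8405 to 11413 CPM at 2 weeks and 9627 to 14089 CPM at 8 weeks, a difference within the spread of the libraries (log2 0.17 ± 0.16, adjusted p = 0.47). Outside these lists, Eln, the elastin gene, had a large drop among genes with at least 5 CPM. It stood at 44.1, 17.3, 52 and 60.8 CPM and then at 5.78, 4.19, 5.82 and 7.93 CPM (log2 −2.58 ± 0.33, adjusted p = 0.00161). Postn, a periosteal and ligament matrix protein, fell by 2.20 ± 0.42 (adjusted p = 0.00731), from 42.4 to 155 CPM to 7.39 to 22.9 CPM.

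The proteoglycan genes that were called fell, and 2 hyaluronan synthase genes rose. Of 10 tested proteoglycan and hyaluronan genes 3 fell and 2 rose, and of 10 small leucine-rich proteoglycans 3 fell and 0 rose (median log2 −0.25 and −0.41). Acan, the aggrecan core protein, read 2942, 2965, 3381 and 3240 CPM at 2 weeks and 1900, 1705, 1997 and 2142 CPM at 8 weeks, tight groups that did not overlap (log2 −0.70 ± 0.11, adjusted p = 0.00311). Vcan, the related proteoglycan versican, fell from 798 to 903 CPM to 299 to 723 CPM (log2 −0.84 ± 0.24, adjusted p = 0.037). The 3 hyaluronan synthases did not move together. Has2 fell by 0.69 ± 0.22 (adjusted p = 0.0486), while Has1 rose by 1.02 ± 0.19 (adjusted p = 0.00697), from 6.82 to 13.5 CPM to 15.6 to 23.5 CPM, and Has3 rose by 0.64 ± 0.14 (adjusted p = 0.0129). Bgn, biglycan, fell by 0.93 ± 0.14 (adjusted p = 0.0024), Lum, lumican, by 0.75 ± 0.22 (adjusted p = 0.0379, and log2 0.07 with clusters weighted equally), and Kera, the keratocan gene, by 1.98 ± 0.46 (adjusted p = 0.0153). Several abundant genes of these lists did not pass. Dcn, decorin, averaged a log2 change of 0.02 ± 0.15 (adjusted p = 0.936), Chad, chondroadherin, −0.17 ± 0.17 (adjusted p = 0.497), and Prg4, the lubricin gene of cartilage surfaces, 0.16 ± 0.26 (adjusted p = 0.706). Fmod, fibromodulin, was at 1860 to 2480 CPM and then at 1393, 1397, 1405 and 2146 CPM, and only CON 8 overlapped with the early libraries (log2 −0.47 ± 0.16, adjusted p = 0.0593). Prelp, a basement membrane anchor, was at −0.34 ± 0.12 (adjusted p = 0.0769). The Vcan call was lost without any one of CON 1 to 6 (adjusted p 0.055 to 0.0936), the Has2 call without any one library but CON 2 (0.0727 to 0.124), and the Lum call without CON 1, 3, 5, 6, 7 or 8 (0.0506 to 0.0946).

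The most abundant matrix transcripts were also read in cells not known to make them, which serves as a measure of free RNA in droplets. In myeloid cells of the same libraries (25 to 259 cells each) Col1a1 had 456 to 1721 CPM at 2 weeks and 37.3 to 137 CPM at 8 weeks, and Sparc 739 to 2393 and 100.2 to 245 CPM. Subtracting the myeloid level from the IVD level in each library left the 2-week mean of Col1a1 at 4.44 times the 8-week mean (4.74 without subtraction), that of Col2a1 at 3.99 times (4.35) and that of Sparc at 3.12 times (3.38). With 1000 UMIs drawn from each cell, Col1a1 had a UMI in 49.3 ± 10.4% of IVD cells at 2 weeks and 16.6 ± 4.81% at 8 weeks (SD, n = 4). With all UMIs these shares were 85.1 and 32.5%, and the thinned share in myeloid cells was 36.1 to 55.1% at 2 weeks and 3.56 to 11.3% at 8 weeks. The share of cells with a Col1a1 UMI was therefore near this background at 2 weeks, and the level in CPM is the measure used here. Median depth was 2479 to 6922 UMIs in myeloid cells and 4226 to 7667 in IVD cells.

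The IVD class mixes nucleus and annulus cells, so each gene was also taken within clusters of the joint K-means. Cluster 0 had high Acan and Col2a1 and held 78.6 to 93.5% of the cells of a library. Cluster 2 had high Col1a1, Lum and Tnmd and held 9.90 to 15.2% at 2 weeks and 5.46 to 8.24% at 8 weeks. Because genes that set the clusters changed with time themselves, the cluster sizes were not compared. Within clusters, 776 genes were higher and 882 lower in cluster 0, and 164 and 277 in cluster 2, of 11224 tested in each. These counts are the background for the counts of a list within a cluster. In cluster 0 Col1a1 read 4439, 2915, 5816 and 2832 CPM at 2 weeks and 1172, 1354, 431 and 695 CPM at 8 weeks (log2 −2.20 ± 0.35, adjusted p = 0.00424). In cluster 2 it read 55174, 70018, 60104 and 38757 CPM and then 22103, 25085, 20230 and 13983 CPM (log2 −1.46 ± 0.26, adjusted p = 0.0095). The direction of the fall was the same in both, as it was for Col2a1, Sparc, Eln and Acan. In cluster 2, however, Acan and Col2a1 were near the free RNA level of myeloid cells at 2 weeks. Acan had 281 to 495 CPM there against 195 to 347 CPM in myeloid cells, and Col2a1 491 to 1772 against 113 to 2424 CPM. At 8 weeks these were 160 to 216 against 16.5 to 98.4 CPM, and 339 to 545 against 18.1 to 134 CPM. The part of free RNA in the cluster 2 values of these genes was not tested. Nor was it tested in cluster 0 for genes with their higher level in cluster 2. Col1a1 in cluster 0 stood against 456 to 1721 CPM in myeloid cells at 2 weeks and 37.3 to 137 CPM at 8 weeks. At 2 weeks Col14a1 averaged 64.7 CPM in cluster 0 and 2145 CPM in cluster 2, and Tnmd 23.6 and 1125 CPM. Of the 32 fibre collagen and processing genes, 23 were lower within cluster 0 (median log2 −0.77) and 14 within cluster 2 (median −0.60). Of the 10 small leucine-rich proteoglycans, 1 was lower within cluster 0 and 0 within cluster 2. Kera was called in neither (cluster 0 log2 −1.17 ± 0.39, adjusted p = 0.068, and cluster 2 −1.40 ± 0.48, adjusted p = 0.117). Neither was Postn (cluster 0 log2 −1.59 ± 0.49, adjusted p = 0.0508, and cluster 2 −1.43 ± 0.39, adjusted p = 0.0555). Of the 93 called genes described here, 13 had the opposite sign within cluster 2, with no call there: Comp, Mgp, Lum, Sox6, Krt18, Wnt11, Adamts6, Lbp, Bhlhe40, Cry1, Nr1d2, Rad51ap2 and Ndufaf2. With the 3 clusters weighted equally, cluster 1, with endothelial and mural genes and 30 to 1411 cells a library, counted as much as clusters 0 and 2. In that setting 4 of the called genes had the opposite sign, with no call: Lum, Wnt11, Igfbp4 and Cry2. Of these, Igfbp4 and Cry2 had a negative log2 change in both cluster 0 and cluster 2. Over all cells of a library Cryab and Epas1 had the opposite sign. In the few IVD cells with no UMI of 85 markers of other cells, where the median of all genes was −0.50, the 8 that did were Has1, Has3, Ptch1, Foxa2, Smad7, Nos2, Cry2 and Best1.

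Mgp and Comp were called in cluster 0 and not in cluster 2. In cluster 0 Mgp stood at 1530 to 2904 CPM at 2 weeks and 4944 to 8278 CPM at 8 weeks (log2 +1.60 ± 0.21, adjusted p = 0.00201). In cluster 2 it stood at 1779 to 5360 and 1766 to 4094 CPM, which overlapped (log2 −0.29 ± 0.31, adjusted p = 0.639). Comp fell within cluster 0 by 0.84 ± 0.17 (adjusted p = 0.0109) and had a log2 change of 0.05 ± 0.18 in cluster 2 (adjusted p = 0.912). No test of the difference between clusters was made.

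**Figure D3:**
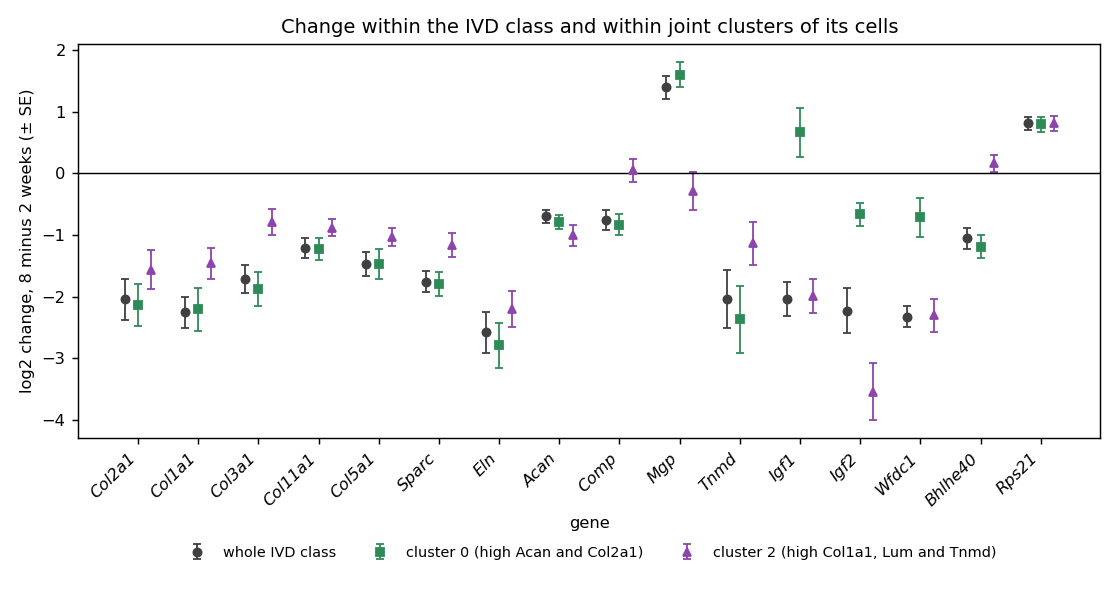
Log2 change from 2 to 8 weeks (± SE, limma) for 16 genes in the whole IVD class (circles), in cluster 0 (squares) and in cluster 2 (triangles), 4 against 4 libraries each. Collagen, Sparc and Eln points lie below 0 in all 3, Mgp is above 0 in the class and in cluster 0 (+1.40 and +1.60) and at −0.29 in cluster 2, and Igf1 is at −2.04, +0.66 and −1.99.

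Tendon and ligament genes known from the outer annulus were lower in 15 of 22 tested members and higher in 0 (median log2 −0.78). Within clusters fewer passed, 6 lower in cluster 0 (median −0.65) and 2 in cluster 2 (median −0.43). Fewer of all 11224 genes were lower there as well, 882 and 277. The part of free RNA in the cluster 0 values of these genes was not tested. Tnmd, tenomodulin, a marker of mature tendon cells, read 203, 191, 178 and 84.1 CPM in CON 1 to 4 and 64.7, 62.5, 12.7 and 36 CPM in CON 5 to 8. The log2 change was −2.04 ± 0.46 (adjusted p = 0.0148), with CON 4 nearest to the late libraries and CON 7 the lowest. Scx, the tendon transcription factor scleraxis, fell by 1.07 ± 0.15 (adjusted p = 0.00191), from 19.1 to 31.8 CPM to 9.43 to 12.2 CPM. Within cluster 2 Scx fell by 0.85 ± 0.18 (adjusted p = 0.0243), and Tnmd had a log2 change of −1.13 ± 0.35 (adjusted p = 0.0835). Wfdc1, a secreted protein with a protease inhibitor fold, had the smallest p of the genes named here. Its levels were 9.21, 7.64, 13 and 9.94 CPM and then 1.73, 1.1, 0.871 and 0.993 CPM (log2 −2.32 ± 0.17, adjusted p = 0.000325).

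Insulin-like growth factors drive skeletal growth and matrix synthesis, and binding proteins hold them in the tissue. Of 16 tested genes of this axis 8 fell and 0 rose (median log2 −0.53). Within cluster 0, 3 were lower (median −0.27), and within cluster 2, 3 were (median −0.44). Igf1 stood at 122, 100.2, 46.2 and 56.2 CPM at 2 weeks and at 20.5, 14.4, 20 and 16 CPM at 8 weeks. The late libraries lay close together under all early ones (log2 −2.04 ± 0.27, adjusted p = 0.00177). Igf2, the fetal and juvenile ligand, read 26.9, 15.5, 14.4 and 5.37 CPM and then 1.56, 2.99, 1.76 and 2.31 CPM (log2 −2.23 ± 0.36, adjusted p = 0.00378). Both ligands had their higher level in cluster 2. There Igf1 had 778, 703, 316 and 521 CPM at 2 weeks and 203, 85.5, 160 and 126 CPM at 8 weeks (log2 −1.99 ± 0.28, adjusted p = 0.0047). Igf2 in cluster 2 had 25.7 to 157 CPM and then 2.53 to 11.9 CPM (log2 −3.54 ± 0.47, adjusted p = 0.00394). In cluster 0 Igf1 was at 2.27 to 12.4 CPM and 5.52 to 11.6 CPM, with no call (log2 0.66 ± 0.40, adjusted p = 0.277).

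Igfbp4, a binding protein that holds back IGF, read 19.2, 9.59, 12.3 and 10.9 CPM and then 3.48, 3.53, 3.43 and 2.34 CPM (log2 −1.70 ± 0.20, adjusted p = 0.00115, and log2 0.0031 with clusters weighted equally). Igfbp7 fell by 0.64 ± 0.16 (adjusted p = 0.0218), and Igf2r, the receptor that clears IGF2, fell by 0.64 ± 0.09 (adjusted p = 0.00181) from 137 to 163 CPM to 89.6 to 99.7 CPM. The Igfbp7 call was lost without CON 3, 5 or 6 (adjusted p 0.0505 to 0.0611). Igf1 is also a myeloid transcript: myeloid cells had 19.02 to 221 CPM of it, at both times. Of 15 tested juvenile growth and imprinted genes 5 fell, Igf2 among them, and 0 rose.

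Among 19 tested chondrogenic and growth plate regulators 6 fell and 1 rose (median log2 −0.17). Fgfr3, the receptor that slows growth plate cartilage, was at 15.7, 16.9, 19.1 and 18.7 CPM and then at 8.58, 9.16, 7.61 and 10.4 CPM (log2 −0.90 ± 0.12, adjusted p = 0.00161). Pth1r, the receptor of parathyroid hormone-related protein, fell by 0.77 ± 0.11 (adjusted p = 0.00181), and Sox6, a partner of Sox9 in cartilage genes, by 0.62 ± 0.15 (adjusted p = 0.0186, and 0.0578 without CON 3). Ptch1, the hedgehog receptor that is itself induced by hedgehog signalling, rose by 0.60 ± 0.13 (adjusted p = 0.0145). Sox9, the master regulator of cartilage genes, read 593, 919, 728 and 589 CPM and then 795, 681, 1019 and 818 CPM, groups that overlapped (log2 0.24 ± 0.16, adjusted p = 0.334).

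Of 15 tested hypertrophy and mineralization genes 2 rose and 1 fell (median log2 0.49, with 11 above 0). Spp1, osteopontin, read 2914, 3360, 4088 and 3266 CPM at 2 weeks and 6161, 4188, 6159 and 5790 CPM at 8 weeks (log2 +0.70 ± 0.16, adjusted p = 0.0137). CON 6 was only just above the highest early library. Runx2, the regulator of hypertrophy and bone, rose by 1.04 ± 0.22 (adjusted p = 0.0125) at low levels, 2.01 to 2.47 CPM and then 2.98 to 8.38 CPM. Ankh, a transporter linked to the export of pyrophosphate, which blocks mineral, fell by 0.81 ± 0.15 (adjusted p = 0.00673). Among 10 tested notochordal genes, those of the embryonic cells that form the nucleus, 2 rose and 1 fell. Of the 10, 6 had a log2 change above 0 and 4 below (median 0.34). Foxa2 went from 1.3 to 4.14 CPM to 4.68 to 12.2 CPM (log2 +1.19 ± 0.30, adjusted p = 0.0213). The keratin gene Krt18 changed by +0.97 ± 0.26 (adjusted p = 0.0268) at low levels that overlapped, 1.85 to 4.42 CPM and then 3.73 to 9.62 CPM. The Foxa2 call was lost without CON 3 or 5 (adjusted p 0.0521 to 0.0588) and the Krt18 call without any one of CON 1, 3, 4, 5, 7 and 8 (0.0548 to 0.0728).

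In the TGF-beta and BMP pathways, which set matrix synthesis, 9 of 35 tested genes fell and 5 rose (median log2 0.05). Fstl1, a secreted binder of BMPs, read 190, 151, 192 and 145 CPM and then 69.5, 64.5, 60 and 65.9 CPM (log2 −1.36 ± 0.11, adjusted p = 0.000632). Grem1, the BMP antagonist gremlin, fell by 1.28 ± 0.30 (adjusted p = 0.0181), from 519 to 1107 CPM to 208 to 477 CPM. Tgfbi, a matrix protein induced by TGF-beta, fell by 0.72 ± 0.14 (adjusted p = 0.00708). Id1, a direct BMP target, stood at 46, 34.7, 44.6 and 39 CPM at 2 weeks and at 87.5, 176, 87.2 and 69.9 CPM at 8 weeks. All late libraries were above the early ones, CON 6 farthest (log2 +1.25 ± 0.24, adjusted p = 0.00731). Smad7, the inhibitory SMAD, rose by 0.86 ± 0.16 (adjusted p = 0.00729).

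Of 28 tested Wnt genes 5 fell and 3 rose (median log2 −0.10). Sfrp2, a secreted Wnt antagonist of fibroblasts, read 154, 55.9, 54.2 and 17.4 CPM and then 18.2, 8.65, 3.77 and 6.95 CPM, with CON 4 and CON 5 overlapping (log2 −2.58 ± 0.57, adjusted p = 0.0137). Wnt11 fell by 0.85 ± 0.16 (adjusted p = 0.00766), but had a log2 change of 0.62 with clusters weighted equally (adjusted p = 0.351) and 0.16 within cluster 2. In the CCN family of matrix signalling proteins 4 of 6 members fell and 0 rose: Nov and the 3 Wisp genes. Within cluster 0, 1 member was lower (median log2 −0.25), and within cluster 2, 0 were (median −0.37). Ctgf, the member with the highest level of those named here, ran from 949 to 5282 CPM at 2 weeks and from 2137 to 6472 CPM at 8 weeks (log2 0.61 ± 0.49, adjusted p = 0.406).

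Among genes of matrix breakdown, 12 of 35 tested proteases were lower and 1, Adamts6, was higher (median log2 −0.30). Within cluster 0, 6 were lower and 3 higher, and within cluster 2, 5 were lower. Mmp2, gelatinase A, read 148, 124, 110 and 90 CPM and then 74.6, 60.8, 44.9 and 52.8 CPM (log2 −1.0 ± 0.18, adjusted p = 0.00514). It was called in neither cluster, at −0.62 ± 0.21 in cluster 0 (adjusted p = 0.0688) and −0.33 ± 0.15 in cluster 2 (adjusted p = 0.21). Mmp14, which activates Mmp2 at the cell surface, fell by 0.95 ± 0.14 (adjusted p = 0.0021), and Ctsk, the collagen-cutting cathepsin K, by 0.98 ± 0.18 (adjusted p = 0.00659). Mmp23 was at 4.13 to 8.88 CPM and then at 0.851 to 1.99 CPM (log2 −1.76 ± 0.22, adjusted p = 0.00143). Adamts6 rose by 0.68 ± 0.20 (adjusted p = 0.039), with libraries that overlapped, and its call was lost without any one of CON 1 and CON 3 to 7 (adjusted p 0.0693 to 0.0989). Of 13 protease inhibitors 2 rose and 2 fell. Timp1, an inhibitor of metalloproteinases, read 389, 392, 384 and 352 CPM at 2 weeks and 792, 652, 511 and 545 CPM at 8 weeks (log2 +0.70 ± 0.13, adjusted p = 0.00722). Serpinf1, the antiangiogenic serpin PEDF, fell by 1.14 ± 0.16 (adjusted p = 0.00187).

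Of 29 tested inflammatory mediators 5 rose and 2 fell (median log2 0.08). Lcn2, lipocalin 2, an iron-binding protein of acute inflammation, read 11.8, 6.48, 2.84 and 6.39 CPM and then 20.1, 23, 28.9 and 14.8 CPM (log2 +1.62 ± 0.32, adjusted p = 0.00805). Lbp, which carries bacterial lipopolysaccharide to its receptor, rose by 1.12 ± 0.26 (adjusted p = 0.0154), and Nos2, the inducible nitric oxide synthase, by 1.32 ± 0.23 (adjusted p = 0.00517) at low levels, 0.519 to 1.16 CPM and then 2.22 to 5.33 CPM. Ngfr, the low-affinity neurotrophin receptor, did not pass, at 11.6 to 19.9 CPM and 7.53 to 22.3 CPM (log2 0.04 ± 0.28, adjusted p = 0.943).

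Of 43 tested immediate early and heat shock genes 4 rose and 0 fell, all 4 of them heat shock genes, so 9.30% were higher against 7.33% of all genes and 0% lower against 11.5%. Hspa1a, an inducible chaperone of the HSP70 family, read 169, 166, 180 and 145 CPM and then 344, 392, 262 and 235 CPM (log2 +0.87 ± 0.16, adjusted p = 0.00527). In cluster 0 it rose from 43.7 to 66.2 CPM to 152 to 360 CPM (log2 +2.19 ± 0.24, adjusted p = 0.00124), and in cluster 2 it was at 813 to 981 and 642 to 1305 CPM (log2 0.09 ± 0.18, adjusted p = 0.815). Dnajb1, its co-chaperone, rose by 0.75 ± 0.13 (adjusted p = 0.00459). Cryab, a small heat shock protein named for its large change, read 9.99, 15.3, 46.1 and 13.1 CPM and then 91.4, 51, 65.5 and 60.5 CPM, with CON 3 nearest to the late libraries (log2 +1.84 ± 0.38, adjusted p = 0.0104). Such transcripts can also rise while tissue is digested, and the contribution of that step was not tested.

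Of 33 antioxidant and metallothionein genes 7 rose and 3 fell (median log2 0.13). Sod1, the cytosolic superoxide dismutase, read 186, 196, 191 and 247 CPM and then 295, 328, 328 and 305 CPM (log2 +0.62 ± 0.11, adjusted p = 0.00453). Metallothioneins, which bind zinc, differed among the late rats: Mt1 was at 923 to 1385 CPM at 2 weeks and at 2972, 2855, 1390 and 1420 CPM at 8 weeks (log2 +0.93 ± 0.26, adjusted p = 0.0331), so CON 7 and CON 8 lay just above CON 1. Mt2A was likewise higher in CON 5 and 6 than in CON 7 and 8 (log2 +0.89 ± 0.26, adjusted p = 0.0414). Both calls were lost without any one of CON 2 to 6 (adjusted p 0.0584 to 0.106). Of 28 tested genes of endoplasmic reticulum chaperones and the unfolded protein response 4 fell and 0 rose: Hsp90b1, Calr, Pdia4 and P4hb. The share that fell, 14.3%, was near the 11.5% of all genes. P4hb, the beta subunit of prolyl 4-hydroxylase, fell by 0.44 ± 0.10 (adjusted p = 0.0128) and the disulfide isomerase gene Pdia4 by 0.65 ± 0.14 (adjusted p = 0.0133). Of 35 hypoxia and glycolysis genes 5 fell, again 14.3% and near the share of all genes. Pkm of pyruvate kinase was among them (log2 −0.56 ± 0.13, adjusted p = 0.0183, and up to 0.0562 without CON 3 or 5). The 1 that rose was Epas1, which encodes HIF-2 alpha (log2 +0.67 ± 0.15, adjusted p = 0.0136).

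Of 20 tested circadian clock genes 6 fell and 0 rose (median log2 −0.10). Bhlhe40, a repressor of clock genes, read 125, 165, 134 and 95.8 CPM and then 60.2, 48.4, 63.6 and 74.6 CPM (log2 −1.05 ± 0.17, adjusted p = 0.00378). Arntl, which encodes the activator BMAL1, fell by 0.51 ± 0.10 (adjusted p = 0.00968), and Cry2 by 0.56 ± 0.12 (adjusted p = 0.0128, and log2 0.20 with clusters weighted equally). Rora, which drives Arntl, fell by 0.63 ± 0.12 (adjusted p = 0.00662), Cry1 by 0.44 ± 0.12 (adjusted p = 0.031) and Nr1d2 by 0.39 ± 0.12 (adjusted p = 0.0464). In cluster 2 the 6 genes were not called; Bhlhe40 was at 0.16 ± 0.14 there. The Cry1 call was lost without CON 1, 3, 5, 6 or 7 (adjusted p 0.0509 to 0.0942) and the Nr1d2 call without any one of CON 3 to 8 (0.0667 to 0.128). The hour at which discs were taken is not given in the sources used here, and its part in these values was not tested.

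**Figure D4:**
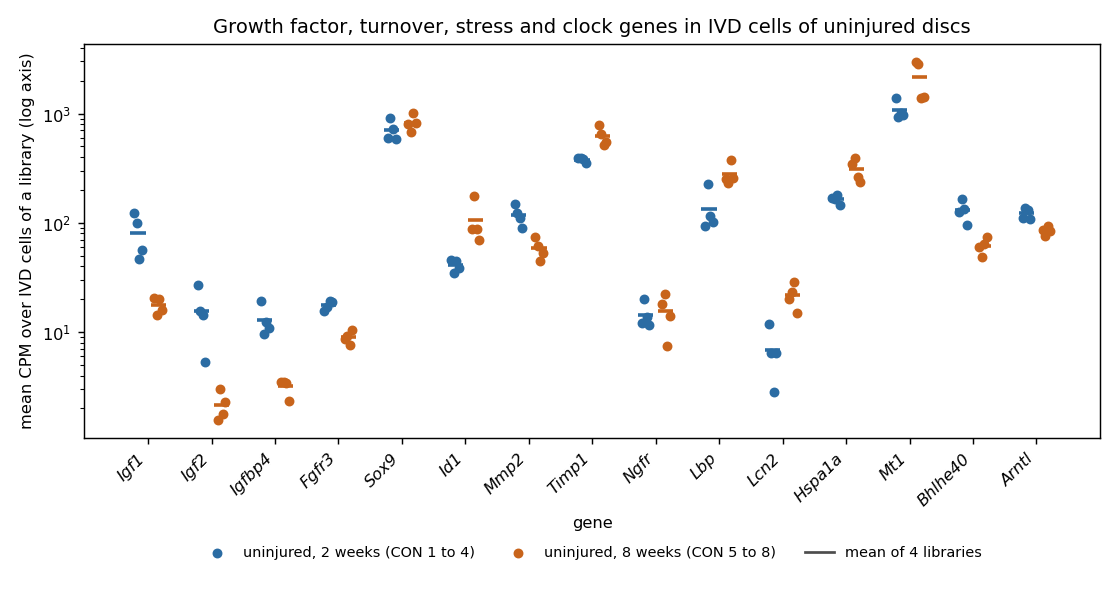
Mean CPM over the IVD cells of each uninjured library (log axis) for 15 growth factor, turnover, stress and clock genes; points are libraries, 4 at 2 weeks (blue) and 4 at 8 weeks (orange), and bars their means. Igf1 and Igf2 separate downward and Lcn2, Id1, Timp1 and Hspa1a upward at 8 weeks, while Sox9 and Ngfr overlap (Ngfr 11.6 to 19.9 against 7.53 to 22.3 CPM).

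Ribosomal protein genes encode the protein part of the ribosome and are transcribed at high and even levels in most cells. Of 74 tested 20 rose and 0 fell, and 65 had a log2 change above 0 (median 0.28). Genes that match by symbol only, those of the S6 kinases and Rps19bp1, were left out after values were seen. Rps21, of the small subunit, read 711, 612, 564 and 742 CPM at 2 weeks and 1219, 1085, 1059 and 1226 CPM at 8 weeks. Both groups were tight and far apart (log2 +0.81 ± 0.11, adjusted p = 0.00189), and the change was 0.79 ± 0.12 in cluster 0 and 0.81 ± 0.12 in cluster 2. Rpl31, of the large subunit, rose by 0.85 ± 0.11 (adjusted p = 0.00165), from 578 to 785 CPM to 1180 to 1360 CPM. Over whole cells, the median percent of counts from ribosomal genes, as deposited by the authors, was 10.3 to 13.0 at 2 weeks and 13.2 to 14.5 at 8 weeks. Ribosomal protein genes have many processed pseudogenes, so a count can depend on how reads were shared among copies.

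Genes of oxidative phosphorylation in the nucleus, which encode the mitochondrial respiratory chain, rose in 27 of 89 tested members and fell in 1 (median log2 0.22, with 74 above 0). Atp5me, a subunit of ATP synthase, read 107, 75.3, 83 and 108 CPM and then 141, 167, 163 and 154 CPM (log2 +0.75 ± 0.13, adjusted p = 0.00456). Cox7c of cytochrome oxidase rose by 0.51 ± 0.09 (adjusted p = 0.00604), and Ndufaf2, an assembly factor of complex I, by 1.07 ± 0.17 (adjusted p = 0.00311). Within cluster 2 the median of this list was −0.06. Snrpf, a core protein of the spliceosome and also a short gene, was at 54.8 to 85.2 CPM and then at 150 to 193 CPM (log2 +1.29 ± 0.15, adjusted p = 0.00119).

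Genes that rose were shorter than genes that fell. The median span from start to end was 14.6 kb for the higher genes and 38.9 kb for the lower ones, against 25.4 kb for all tested genes, from RefSeq on GRCr8 (86.6, 93.6 and 90.5% of the genes had a span). In the quartile of shortest genes, up to 10.7 kb, 11.3% were higher and 9.25% lower. In the quartile of longest genes, above 61.1 kb, 3.39% were higher and 18.9% lower. Ribosomal protein genes had a median span of 3.13 kb and fibre collagen and processing genes one of 35.4 kb. This is a description across genes, which are not independent replicates.

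**Figure D5:**
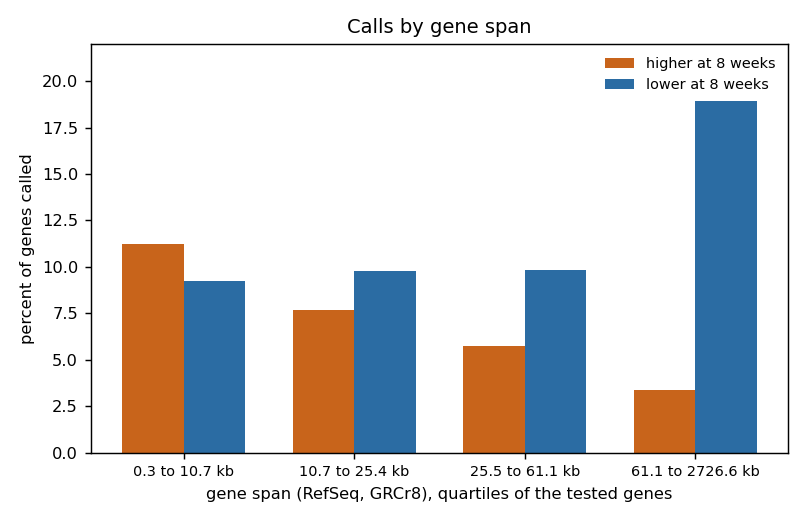
Percent of tested genes called higher (orange) or lower (blue) at 8 weeks in each quartile of gene span, from short to long. The higher share goes from 11.3% to 3.39% and the lower share from 9.25% to 18.9%.

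The stretch just before the start of these genes was read from the RefSeq promoter table (GRCr8, another build than the rn6 of the files; matched by gene symbol). The 6-base word CCGGAA, the core bound by ETS-family factors, was searched on both strands (TTCCGG on the other) in the 250 bases before the start. It was present in 32.0% of the higher genes with an entry (187 of 584), in 17.3% of the lower genes (169 of 975) and in 25.6% of all tested genes (2147 of 8390). Over all 27457 promoters of the table the share was 13.4%. It was in 28 of 75 oxidative phosphorylation genes, 18 of 56 ribosomal protein genes and 1 of 24 fibre collagen and processing genes with an entry. The other words searched, on both strands, were CCAAT (39.0% of higher and 30.4% of lower genes), GGGCGG (56.3 and 62.1%) and TATAAA (8.73 and 6.15%). Over all tested genes they were in 35.7, 60.6 and 6.31%, and none of the words contains another.

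A pair of ribosomal protein genes that rose and a pair of genes that fell are shown so that the word can be seen in place. These genes were chosen for display and do not stand for their lists. Among ribosomal protein genes with an entry, 18 of 56 held the word. Each run is 5′ to 3′ on the strand of the gene and ends at the base before its start, with the word in capitals where it occurs. The positions are chr9:49142861-49143110 (+) for Rpl31, chr3:187723788-187724037 (+) for Rps21, chr10:40038817-40039066 (−) for Sparc and chr7:24172282-24172531 (+) for Igf1.
Rpl31: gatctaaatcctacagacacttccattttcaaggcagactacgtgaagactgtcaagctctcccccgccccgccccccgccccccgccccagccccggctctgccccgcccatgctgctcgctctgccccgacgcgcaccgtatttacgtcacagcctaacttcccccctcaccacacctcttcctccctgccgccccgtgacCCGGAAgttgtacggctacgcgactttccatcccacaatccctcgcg
Rps21: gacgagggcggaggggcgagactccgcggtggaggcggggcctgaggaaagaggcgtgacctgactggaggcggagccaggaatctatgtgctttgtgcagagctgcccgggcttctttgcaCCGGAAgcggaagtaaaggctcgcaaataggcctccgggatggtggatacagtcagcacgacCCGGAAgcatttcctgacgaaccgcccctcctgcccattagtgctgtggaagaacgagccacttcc
Sparc: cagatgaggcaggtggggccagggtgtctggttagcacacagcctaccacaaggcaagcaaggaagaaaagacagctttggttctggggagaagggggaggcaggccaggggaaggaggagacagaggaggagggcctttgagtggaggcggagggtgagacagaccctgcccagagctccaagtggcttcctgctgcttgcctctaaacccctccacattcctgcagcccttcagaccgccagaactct
Igf1: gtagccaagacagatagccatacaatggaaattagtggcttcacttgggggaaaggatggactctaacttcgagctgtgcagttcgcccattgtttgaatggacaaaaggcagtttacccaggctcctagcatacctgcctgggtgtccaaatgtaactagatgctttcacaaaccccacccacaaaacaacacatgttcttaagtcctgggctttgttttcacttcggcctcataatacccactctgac
Rpl31 held the word 1 time and Rps21 2 times, and it was in neither the Sparc nor the Igf1 stretch. A match is a description of letters and not a site, and no match says nothing about a factor.

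The remaining genes of largest change, by a rule that took 12 in each direction, were a mixed group. Creg1, a secreted lysosomal glycoprotein, read 20.2, 37.6, 21.6 and 15.1 CPM and then 68.3, 67.4, 76.9 and 87.2 CPM (log2 +1.69 ± 0.22, adjusted p = 0.00168). Lect2, a secreted protein of liver and cartilage, rose by 1.44 ± 0.24 (adjusted p = 0.00453), and Best1, a chloride channel, by 1.23 ± 0.13 (adjusted p = 0.00112). Tmem200c (+1.49 ± 0.29), LOC691921 (+1.5 ± 0.20) and Rad51ap2 (+1.28 ± 0.26) rose too, at adjusted p of 0.00755, 0.00176 and 0.0104. Mgp, Lcn2, Cryab, Snrpf and Id1 also met this rule.

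Of the 12 that fell, Cdh5, Emcn and Plvap are genes of endothelial cells. Cdh5, the cadherin of vessel junctions, read 5.81, 9.32, 47.4 and 5.19 CPM in CON 1 to 4 and 0.627, 2.81, 1.65 and 0.763 CPM in CON 5 to 8 (log2 −2.38 ± 0.57, adjusted p = 0.0186). Plvap changed by −2.21 ± 0.57 (adjusted p = 0.0251, and up to 0.0619 without CON 5 or 8) and Emcn by −2.25 ± 0.56 (adjusted p = 0.0208, and 0.0511 without CON 5). CON 3 was far above the other early libraries in each, with 50.8 CPM of Plvap against 5.30 to 12.4 and 29.5 CPM of Emcn against 2.73 to 10.3. Without it the changes were −1.71 for Cdh5, −1.59 for Plvap and −1.66 for Emcn. Over the whole list of 18 endothelial markers 7 of 14 tested fell and 0 rose, and their summed level was 204 to 406 CPM at 2 weeks and 121 to 159 CPM at 8 weeks, highest in CON 3. In cells with no class name the sum was 699 to 2110 CPM at 2 weeks and 2631 to 6572 CPM at 8 weeks. Where the authors placed endothelial cells thus differed between the groups, and its part in the fall within the IVD class was not tested.

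Markers of other cell types were summed over the IVD cells of each library. Myeloid markers summed to 7.42 to 29.7 CPM and 6.06 to 31.9 CPM (16 genes), and lymphoid markers to 8.51 to 18.6 and 6.52 to 41.7 CPM (12 genes). Pericyte and smooth muscle markers summed to 75.1 to 206 and 78.9 to 123 CPM. Higher sums came from Schwann cell markers, 717 to 972 and 651 to 1034 CPM (8 genes), and osteoblast markers, 211 to 994 and 373 to 951 CPM (6 genes), and in both lists the times overlapped. Erythroid and granulocyte markers varied widely from rat to rat, erythroid ones over 21.5 to 478 and 11.4 to 3101 CPM and granulocyte ones over 1.28 to 189 and 2.15 to 125 CPM. Hba-a2, a globin chain, ran from 15.1 to 423 CPM at 2 weeks and from 7.04 to 2782 CPM at 8 weeks, with no call (adjusted p = 0.647). Of 9 tested pericyte and smooth muscle genes 2 fell, of 7 myeloid genes 1 fell, and of 5 Schwann cell genes 1 rose and 0 fell. Of 4 to 9 tested members of the lymphoid, erythroid and granulocyte lists 0 were called. Of 3 tested skeletal muscle, 5 osteoblast and 4 adipocyte genes 0 were called. In cells with no class name, pericyte and smooth muscle markers summed to 3376 to 7128 CPM at 2 weeks and 92.4 to 330 CPM at 8 weeks. Schwann cell markers there summed to 960 to 3172.5 and 120 to 196 CPM. Sums of the myeloid, lymphoid, erythroid, granulocyte, skeletal muscle, osteoblast and adipocyte lists there overlapped between the times. The makeup of these cells thus differed in more than endothelial markers. The part of all these cell types in the results was not tested.

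The remaining lists had at most 4 calls in a direction. Of 31 cell cycle genes 3 rose and 1 fell, and of 15 senescence genes 0 rose and 2 fell. Of 27 interferon and MHC genes 1 rose and 3 fell, of 11 complement genes 1 rose and 3 fell (27.3% lower), and of 18 genes of ion and water transport 2 rose and 4 fell (22.2% lower, against 11.5% of all genes). Of 14 tested Hox genes 2 rose and 0 fell.

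The same interval was read in punctured discs of the same rats, which allows the question whether the change was particular to uninjured ones. Fitted alone, the 8 LDP libraries gave 120 higher and 366 lower genes. The difference of the time change was tested with a block for the rat over 16 libraries, and 1 of 11218 genes passed (0.00891%). An unadjusted p under 0.05 was reached by 177 genes, a smaller share than the 0.05 that this threshold gives where no gene differs. The gene that passed was Scn7a, a sodium channel gene of glia and other support cells, named because it passed. It read 0.446, 0.578, 4.02 and 0.31 CPM in CON 1 to 4 and 2.75, 5.67, 1.13 and 4.56 CPM in CON 5 to 8. In LDP it read 8.5, 14.7, 7.19 and 5.51 CPM and then 0.087, 0.679, 0.125 and 0.129 CPM. The difference was 4.01 ± 0.56 on the log2 scale (adjusted p = 0.022). It was not called in CON alone over the whole class (adjusted p = 0.119). Within cluster 2 of CON it rose, from 0 to 2.59 CPM at 2 weeks to 11.6 to 20.7 CPM at 8 weeks (log2 +3.22 ± 0.36, adjusted p = 0.00157), and in cluster 0 it was not called (log2 −0.37 ± 0.34, adjusted p = 0.48). The count of genes with a difference was 0 without any one of rats 1, 2, 4, 5, 6 or 8 and 7 without rat 3.

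For the matrix genes the values in LDP ran beside those in CON. Col1a1 fell by 2.83 on the log2 scale in LDP (adjusted p = 0.0047), Sparc by 2.10 (adjusted p = 0.00325) and Eln by 3.48 (adjusted p = 0.00703). Mgp had a log2 change of 0.82 in LDP (adjusted p = 0.142) and Igf1 one of −1.75 (adjusted p = 0.101), and neither difference from CON passed. The median of the 32 fibre collagen and processing genes was −1.06 in LDP and −0.86 in CON. With 4 rats a time, a difference that missed the threshold does not show that both kinds of disc changed alike.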

How the data were processed

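Single-cell RNA was measured in 16 libraries, 8 of them from uninjured discs. According to the methods and labels, the authors processed reads in Partek Flow (rn6 in the processing notes), filtered cells by genes, UMIs and mitochondrial share, clustered each of the 4 groups by K-means and named classes by markers. The authors deposited log2(CPM + 1) for every gene and cell. The authors also deposited, per cell, the total of its expected counts over the listed genes and the percent of mitochondrial and ribosomal counts. The handling of doublets and free RNA is not given in the sources used here, and no doublet caller was run. Multiplying the CPM back by the deposited total gave a whole count within 0.02 for 99.4% of values above 0.

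Here CPM were averaged over the IVD cells of each library, and log2(mean CPM + 1) of genes with a mean of at least 1 CPM was fitted by limma 3.58.1 (eBayes with trend) in R 4.3.3, 4 against 4 libraries, with Benjamini-Hochberg adjustment over 11224 genes. A fold on this scale understates changes of low genes. Shares and depths were compared by exact permutation over 70 regroupings of the libraries, whose smallest p is 0.0286. The difference from punctured discs was fitted over 16 libraries with the rat as a random block, because both libraries of a rat come from 1 animal (consensus correlation 0.0626). No rat is in both time groups, so the time comparison itself is unpaired. Joint clusters came from K-means with 3 clusters on 30 principal components of 2000 genes (scikit-learn 1.9.0). edgeR 4.0.16 and DESeq2 1.42.0 on recovered counts summed per library were alternatives. The limma fits with and without the block, edgeR and DESeq2 were tested on simulated data. There the fit of the difference of time changes found 54.0% of 200 changed genes at a log2 difference of 1 and 96.5% at 2.

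The gene lists and members were chosen with earlier results of these data known. Text names come from a rule: 12 genes of largest change per direction among called genes with at least 5 CPM in 1 group and no overlap, up to 6 called members per direction and the 3 most abundant of each list, and a few disc genes. The rule gave 267 genes, of which 103 are described with values. Nov, the Wisp genes and other members named without values complete a count. Some genes the rule gave are not reported here. Scn7a was named after its value was seen. Gene spans and promoter stretches are from RefSeq on GRCr8.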

Additional observations from a re-analysis of the deposited data

Results flagged for a closer look

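In 15 of 220 groups of 4 libraries checked, 1 library lay far from the other 3 by Dixon's criterion for 4 values, where chance flags about 1 in 20 groups. Levels of genes were taken on the log scale for this check. At 2 weeks these were Col1a1 in CON 4 (6542 CPM, the lowest), Tnmd in CON 4 (84.1 CPM, the lowest), Tnc in CON 4 (148 CPM, the lowest), Col9a2 in CON 1 (397 CPM, the highest) and Loxl1 in CON 3 (10.3 CPM, the lowest). At 8 weeks they were Comp, Spp1 and Ankh in CON 6 (3673, 4188 and 67.3 CPM, each the lowest). Has2 in CON 5 (51.0 CPM), Fmod in CON 8 (2146 CPM), Wnt11 in CON 8 (12.8 CPM) and Ctgf in CON 7 (6472 CPM) were high. Has3 in CON 7 (2.99 CPM) and Igfbp4 in CON 8 (2.34 CPM) were low. The share of IVD cells in the joint cluster with endothelial and mural genes was 11.5% in CON 3, far above the other 3 libraries of that time.

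Scn7a was flagged because its time change differed between uninjured and punctured discs, by 4.01 on the log2 scale (limma with a block for the rat, adjusted p = 0.022). Its change in CON alone did not pass (log2 1.07, adjusted p = 0.119), and in LDP alone it fell by 2.94 (adjusted p = 0.00279). The next gene by p, Col28a1, named after its value was seen, differed by 3.56 (adjusted p = 0.169), and within cluster 2 of CON it rose by 2.72 (adjusted p = 0.00157). It was at 0.414, 0.669, 6.64 and 0.377 CPM and then 2.13, 4.98, 3.24 and 2.85 CPM in CON, and at 5.85, 12.8, 5.4 and 2.71 CPM and then 0.087, 0.178, 0.0217 and 0.0854 CPM in LDP.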

How the results depend on the processing

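Counts of genes held within 1.5 times under other pseudocounts, filters, scalings and edgeR. DESeq2 called 1482 higher genes. All 16 libraries with the replicate block gave 424 higher and 536 lower, with 422 and 531 of the same genes. There 20 of 93 called genes of the text lost the call. No gene could change direction in this fit, since its log2 changes equal those of the main fit by design. Equal weight for the 3 joint clusters gave 261 and 362, with 85 and 299 of the same genes, and cluster 2 alone 164 and 277, with 75 and 191. Of the called genes of the text 41 lost the call and 4 turned with equal clusters, and 49 and 13 in cluster 2. All cells of a library gave 474 higher. IVD cells with no UMI of 85 markers of other cells (5 to 467 a library) gave 0 higher and 0 lower, with 167 and 538 at an unadjusted p under 0.05 in limma. These cells were few, and the cause of the other shifts was not tested. Leaving out 1 library gave 383 to 993 higher and 730 to 1450 lower genes: the higher count dropped by over 1.5 times without CON 1 (449), CON 3 (383), CON 5 (470) or CON 6 (497), and the lower count without CON 1 (806), CON 3 (730) or CON 5 (836). Of 93 called genes of the text, 78 kept the call without any one library and 15 lost it without at least 1.

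The difference between uninjured and punctured discs gave 1 gene without the replicate block and with it as a fixed effect, and 0 to 7 genes with 1 rat left out. The IVD share differed by −2.02 percentage points. By marker genes in place of classes the difference was 3.83 (exact permutation p = 0.371), and with 1 library left out it ran from −5.75 to 3.04.

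Single genes changed sign as follows (log2). Equal clusters gave Fn1 −0.036, Prg4 −0.13, Lum 0.068, Dcn −0.0032, Igfbp4 0.0031, Wnt11 0.62 and Cry2 0.20. Cells without marker UMIs gave Fn1 −0.30, Has1 −0.92, Has3 −0.78, Prg4 −0.024, Dcn −0.35, Ptch1 −0.050, Foxa2 −0.082, Smad7 −0.58, Ngfr −1.21, Nos2 −0.083, Cry2 0.23 and Best1 −0.62, while the median of all genes there was −0.50. The markers that set this choice (Cdh5, Emcn, Plvap and Hba-a2) have no value in it. All cells gave Dcn −0.021, Ngfr −0.37, Cryab −0.25 and Epas1 −0.045. Cluster 0 gave Igf1 0.66, Scn7a −0.37 and Col28a1 −0.28. Cluster 2 gave Comp 0.047, Mgp −0.29, Prg4 −0.031, Lum 0.13, Sox6 0.093, Krt18 −0.0078, Wnt11 0.16, Adamts6 −0.37, Ngfr −0.067, Lbp −0.077, Bhlhe40 0.16, Cry1 0.34, Nr1d2 0.43, Rad51ap2 −0.43 and Ndufaf2 −0.080. With 1 library left out Prg4 ran from −0.039 to 0.34, Dcn from −0.064 to 0.13, Ngfr from −0.16 to 0.32 and Hba-a2 from −0.11 to 2.70. The alternatives of 1 cluster alone and without cluster 1 were chosen after seeing the data. Depth limits genes near 1 CPM, where few UMIs a library stand behind a value.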
